A study of Mus musculus with 6 samples.

Results

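Splenic CD4+ T cells that had been re-activated under anti-PD1 were compared directly with those re-activated under anti-Lag3, gene by gene and without the isotype group. The comparison used 4 of the 6 samples of the series, 2 with anti-PD1 and 2 with anti-Lag3, chosen by their labels. Genes with at least 10 reads summed over all 6 samples were tested, which were 11877 of the 47643 genes in the count table. All mice were Tg4 Tiger Nr4a3-Tocky. Their CD4+ T cells carry a transgenic T cell receptor (TCR) for a myelin basic protein (MBP) peptide, a fluorescent Timer protein reports activity of *Nr4a3*, and GFP reports *Il10*. Each mouse had first received 80 μg of 4Y MBP peptide under the skin. After 24 h it was given 800 μg of antibody into the peritoneum, either anti-PD1 (clone 29F.1A12) or anti-Lag3 (clone CB97W in the labels, C9B7W in the study's methods). A second peptide dose of 8 μg followed 30 min later in the opposite flank, and spleens were taken after a further 4 h. Cells positive for both the blue (newly made) and the red (matured) Timer form were sorted, so each sample holds the cells that responded and says nothing of how many did. The anti-PD1 antibody is a rat IgG2a and the anti-Lag3 antibody a rat IgG1, and the antibody's target and its subclass cannot be told apart in this design. The isotype group received a pool of both subclasses, and its values appear below only as reference levels. Replicates were separate mice, littermates of the same sex were randomised to the groups, and the age of the mice is not given in the sources used here. A further replicate batch, set aside by the authors as an outlier in a principal component analysis, was not analysed here.

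PD-1 and LAG-3 are inhibitory receptors that activated T cells place on their surface. PD-1 binds PD-L1 and PD-L2 and recruits phosphatases that weaken signals from the TCR and from the costimulatory receptor CD28. LAG-3 binds MHC class II among other ligands and dampens TCR signaling by a route that does not run through those phosphatases. Antibodies that block either receptor are used in cancer therapy. A strong TCR signal in CD4+ T cells raises receptors for polarising cytokines such as IL-12 and IL-23, which act through the kinases JAK2 and TYK2 and the factors STAT4 and STAT3, and it raises costimulatory receptors of the TNF receptor family.

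Total counts were between 2107715 and 2648920 reads in the 4 samples, so that 3 reads corresponded to 1.12 to 1.46 CPM (reads scaled to a common library size by the TMM method). A single gene annotated over ribosomal RNA repeats, *Gm42418*, took between 17.4% and 19.1% of the reads. Replicates of a group correlated with a Spearman coefficient of 0.968 with anti-PD1 and 0.966 with anti-Lag3 across genes, which are not independent replicates. Sampling noise alone did not account for the gap between replicates (a chi-square value of 2.65 and 3.29 for each degree of freedom), so each of the 4 samples counted once. The sorted cells carried the genes that define CD4+ T cells, with *Cd4* between 133 and 193 CPM, *Cd3e* between 132 and 162 CPM and *Trac* between 338 and 422 CPM. *Cd8a* stayed at or below 4.29 CPM, while *Cd8b1*, the other CD8 T cell marker, was between 28.0 and 32.6 CPM. *Foxp3*, the defining factor of regulatory T cells, stayed at or below 12.3 CPM. Listed with it as markers, *Ikzf2* was between 171 and 189 CPM and *Il2ra* between 418 and 581 CPM. Also listed were *Capg*, between 10.5 and 23.9 CPM, and *Tnfrsf9*, between 52.0 and 141 CPM and described further on. The share of CD8+ or regulatory T cells among the sorted cells was not tested. Y-linked *Ddx3y* was between 90.0 and 109 CPM and *Xist* at or below 0.823 CPM in all 4 samples, so sex did not separate the groups. Nothing in the counts shows how far the p-values below reach beyond these mice, with 2 samples a group. They rest on a gene's own spread between samples, and mostly on a spread shared across genes. The shared spread carried 57.3 degrees of freedom against 2 from a gene's own samples.

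Anti-PD1 and anti-Lag3 samples differed in 51 of the 11877 genes (0.429%) at an adjusted p under 0.05 (quasi-likelihood test of edgeR, p-values adjusted by the Benjamini-Hochberg method). Of these, 44 were higher with anti-PD1 (0.37% of tested genes) and 7 were lower (0.0589%). The log2 fold changes, anti-PD1 over anti-Lag3, ran in size from 0.34 to 3.05. DESeq2 on the same 4 samples called 19 genes, all among these 51, and gave no adjusted p for 4 of the 51. More than a 2-fold difference was seen in 15 of the higher genes and 2 of the lower. In none of the 51 genes did the samples of the groups overlap. That separation alone is common with 2 samples a group, since 18.2% of all tested genes had both anti-PD1 samples on the high side and 17.7% on the low side. The median log2 fold change over all tested genes was -0.00269, and 822 of them had an unadjusted p under 0.05. Called genes were well expressed, with a median of 188 reads per sample against 39.25 over all genes. In bulk RNA of this kind, fewer cells that express a gene and less of its RNA per cell cannot be told apart. Some called genes overlap another annotated gene, such as *Il12rb2* with *Serbp1*, *Tnfrsf9* with *Camta1* and *Ddit3* with *Mars*, and reads in the shared stretch could belong to either.

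**Figure D1:**
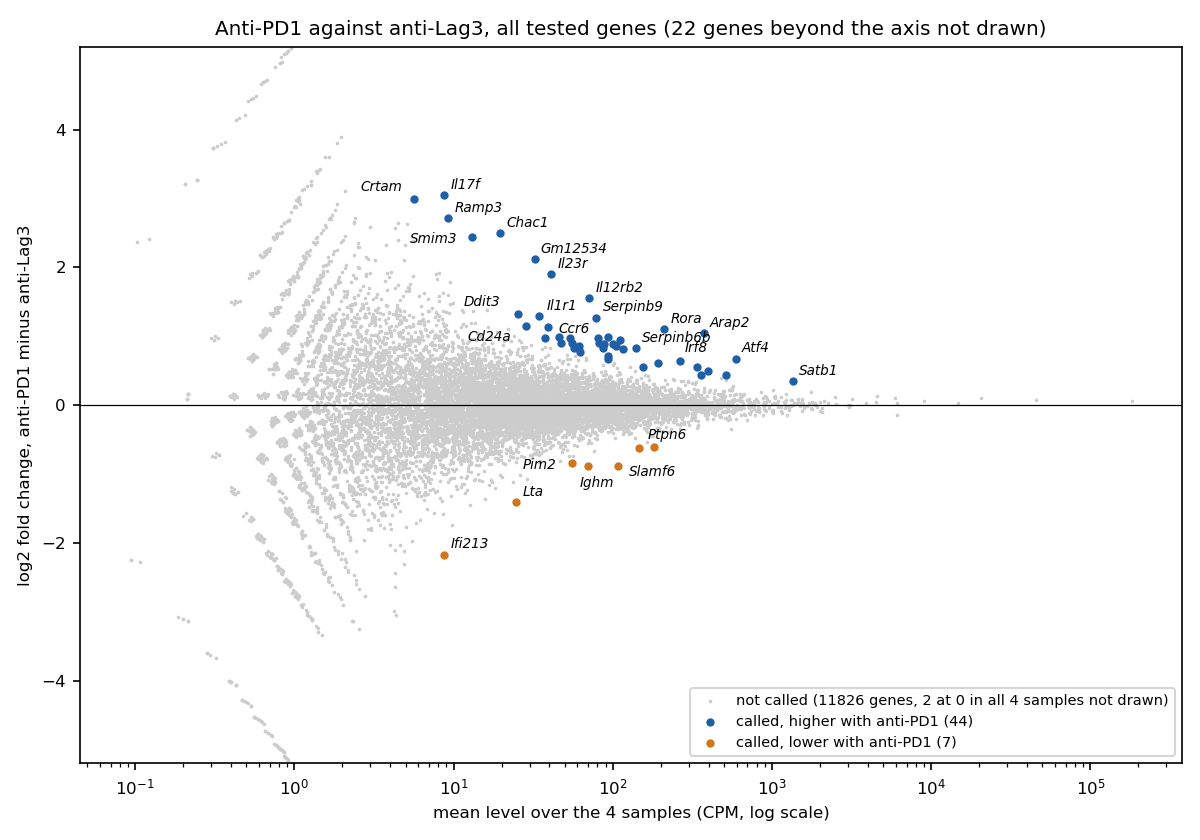
Mean level over the 4 samples (CPM, log axis) against the log2 fold change, anti-PD1 minus anti-Lag3, for the tested genes. Each point is a gene, blue for the 44 called higher with anti-PD1, orange for the 7 called lower and grey for those not called. The called genes lie mostly above 10 CPM and mostly above the zero line, up to 3.05 for *Il17f*.

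**Figure D2:**
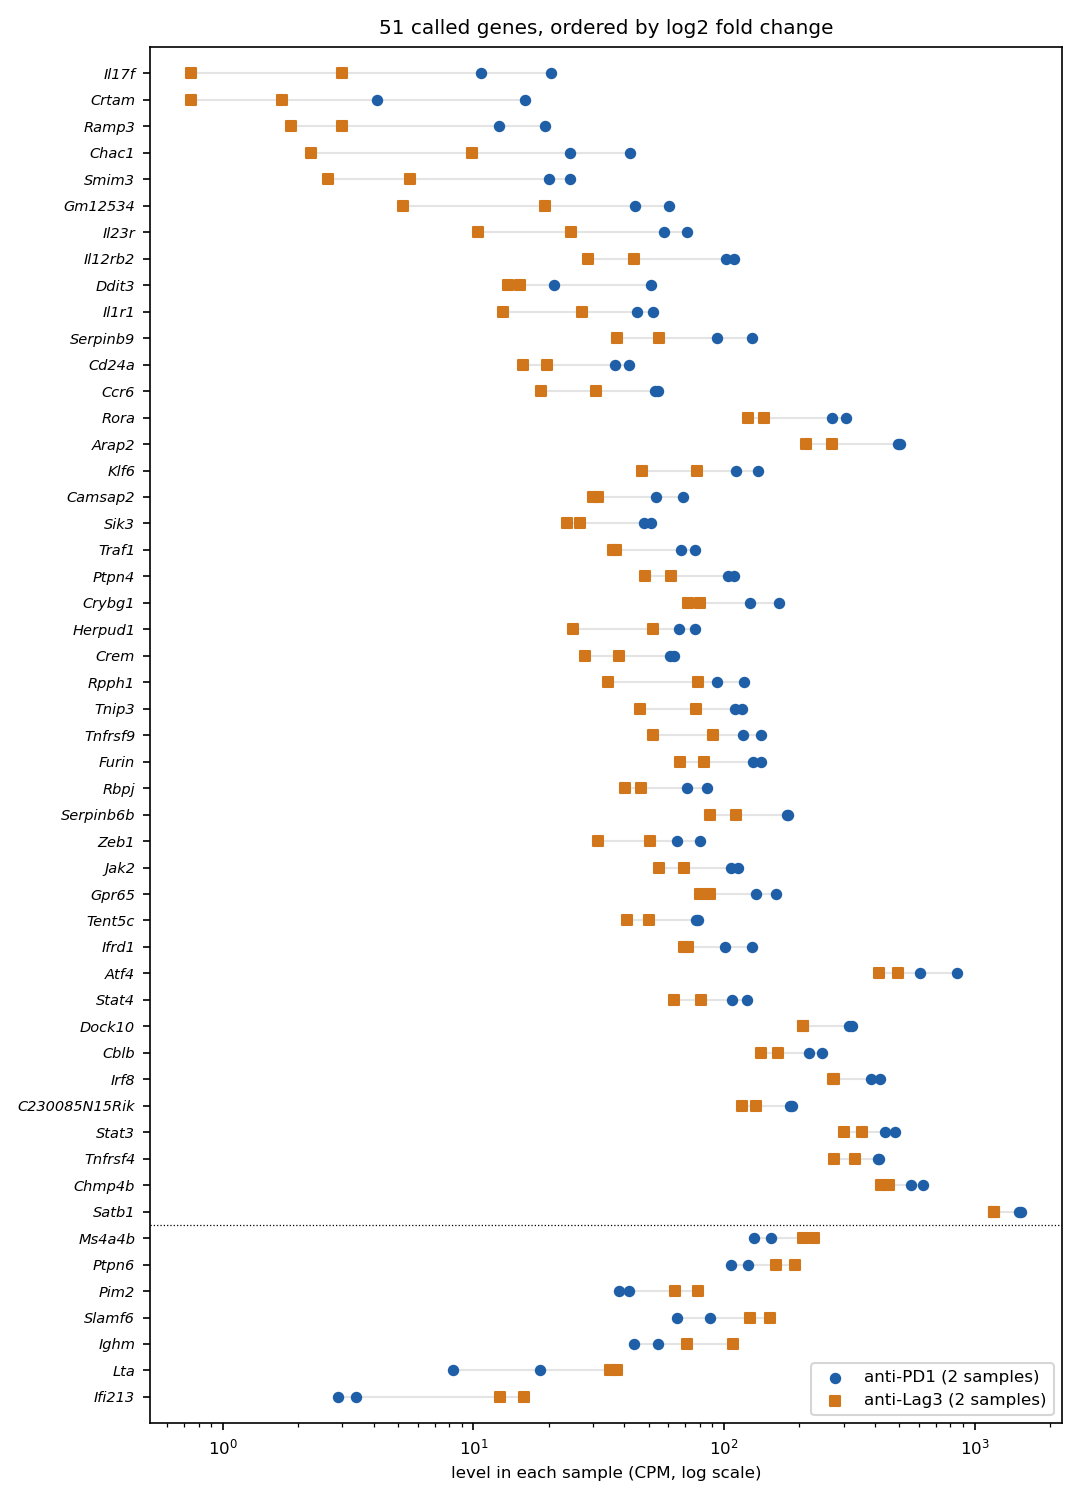
CPM (log axis) of the 51 called genes in each of the 4 samples, blue circles for anti-PD1 and orange squares for anti-Lag3, with genes ordered by log2 fold change and a dotted line between the 44 higher and the 7 lower ones. The circles and squares do not overlap for any of these genes, and the log2 fold change is largest in size at *Il17f* and smallest at *Satb1*.

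The genes of the 2 targeted receptors did not separate the groups. *Pdcd1*, which encodes PD-1, was at 13.2 and 12.3 CPM with anti-PD1 and at 12.9 and 17.2 CPM with anti-Lag3 (log2 fold change -0.24, SE 0.37, adjusted p = 0.972). *Lag3* was at 7.31 and 2.88 CPM against 7.72 and 2.62 CPM (log2 fold change -0.02, SE 0.65, adjusted p = 0.997). Blocking antibodies act on the protein, so these RNA levels do not test the labels. *Nr4a3*, the gene whose activity the Timer protein reports, was at 30.2 and 29.6 CPM with anti-PD1 and at 41.6 and 37.0 CPM with anti-Lag3. Its samples did not overlap, and its log2 fold change of -0.39 (SE 0.24) did not pass the test (adjusted p = 0.819). The wider list of 17 inhibitory receptors and PD-1 ligands had 15 tested members and no call, with 3 members at an unadjusted p under 0.05 and a median log2 fold change of 0.11 that became -0.05 without anti-PD1 1. By limma-voom or DESeq2 on the same 4 samples, the number of calls in this list was also 0. Its largest fitted difference was in *Lair1*, an inhibitory collagen receptor, at 0 and 0.823 CPM against 1.29 and 7.10 CPM, where levels near 3 reads allow no firm fold.

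Of the genes for IL-12, IL-23, IL-18 and IL-1 family receptors and their signaling partners, 5 were higher with anti-PD1 and the others did not pass the test. In this list of 13 genes, 12 were tested and 5 were higher with anti-PD1, 41.7% of them against 0.37% of all tested genes, and none was lower. This list, as the other gene lists here, was chosen with earlier results of these data known. Such shares describe the lists and do not test them. The list's median log2 fold change was 0.50, with 5 of 12 members below 0. Without anti-PD1 2 the median was 0.17 with 2 calls, without anti-Lag3 2 it was 0.26 with 3 calls, and DESeq2 made 2 calls. *Il12rb2*, the signaling chain of the IL-12 receptor (ENSMUSG00000018341, chr6:67291318-67376188, minus strand, GRCm38), was at 102 and 110 CPM with anti-PD1 and at 43.7 and 28.8 CPM with anti-Lag3. The means were 106 ± 5.72 and 36.3 ± 10.6 CPM (SD, n = 2 each), 2.94 times higher with anti-PD1 (log2 fold change 1.56, SE 0.19, adjusted p = 1.99e-07). For reference, both isotype samples were lower still, at 17.7 and 13 CPM. *Il23r* (ENSMUSG00000049093, chr6:67422932-67491855, minus strand) encodes the chain that gives the IL-23 receptor its specificity and is the neighbour of *Il12rb2* on chromosome 6. It was at 71.1 and 57.6 CPM with anti-PD1 and at 24.4 and 10.5 CPM with anti-Lag3, 3.73 times higher (log2 fold change 1.90, SE 0.26, adjusted p = 2.58e-06). Both genes kept the call when any of the 4 libraries was left out, with log2 fold changes from 1.28 to 1.87 for *Il12rb2* and from 1.39 to 2.60 for *Il23r*. Sequence around the starts of this gene pair and of *Il17f* (described further on) is shown because they are the cytokine-axis genes with the largest differences. Each window runs from 250 bases before to 50 after a RefSeq start (GRCm38.p6), 5′ to 3′, with capitals for matches to any of 5 short motifs on either strand:
*Il12rb2*, chr6:67376139-67376438, minus strand: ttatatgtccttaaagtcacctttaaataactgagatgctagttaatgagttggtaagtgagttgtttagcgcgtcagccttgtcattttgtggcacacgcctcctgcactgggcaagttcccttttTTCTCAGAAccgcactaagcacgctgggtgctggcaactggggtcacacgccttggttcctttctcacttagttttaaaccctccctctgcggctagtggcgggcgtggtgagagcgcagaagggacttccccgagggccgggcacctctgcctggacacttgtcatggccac
*Il23r*, chr6:67491806-67492105, minus strand: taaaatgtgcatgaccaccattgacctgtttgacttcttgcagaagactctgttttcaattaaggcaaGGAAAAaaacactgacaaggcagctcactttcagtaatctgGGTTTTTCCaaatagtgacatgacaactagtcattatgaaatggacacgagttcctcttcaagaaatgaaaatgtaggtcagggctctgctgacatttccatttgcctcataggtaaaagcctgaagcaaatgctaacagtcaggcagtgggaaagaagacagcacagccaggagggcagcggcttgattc
*Il17f*, chr1:20784221-20784520, minus strand: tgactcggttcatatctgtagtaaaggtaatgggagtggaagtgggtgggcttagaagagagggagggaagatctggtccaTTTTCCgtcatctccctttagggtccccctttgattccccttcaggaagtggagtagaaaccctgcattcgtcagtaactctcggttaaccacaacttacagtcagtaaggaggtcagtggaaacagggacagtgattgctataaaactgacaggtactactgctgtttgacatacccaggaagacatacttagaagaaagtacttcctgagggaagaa

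The *Il12rb2* window held 1 match to the STAT motif (TTCNNNGAA), the *Il23r* window 1 match to the NF-kB motif (GGNNTTTCC) and 2 to the NFAT motif (GGAAAA), of which the second overlaps the NF-kB match, and the *Il17f* window 1 NFAT match. Over the tested genes, 8518 had such a window under the same symbol, and 8.42%, 7.24% and 23.9% of them held the STAT, NF-kB and NFAT motif. Among the 44 genes higher with anti-PD1, 36 had a window, and 11.1%, 8.33% and 33.3% held these motifs, that is 4, 3 and 12 genes. The AP-1 motif (TGANTCA) was in 8.33% of them against 5.49% of all, and the IRF motif (GAAANNGAA) in 11.1% against 8.72%. Of the 7 lower genes, 6 had a window, and 1 each held the AP-1, STAT and IRF motif and none the NF-kB or NFAT motif. A match is a match of letters, not a site in use.

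The other 3 called members had smaller differences. *Il1r1*, the signaling receptor for IL-1, was at 44.8 and 51.9 CPM with anti-PD1 and at 27.0 and 13.1 CPM with anti-Lag3 (log2 fold change 1.29, SE 0.27, adjusted p = 0.00482). *Jak2*, a kinase bound to the IL-12 and IL-23 receptors, was at 114 and 107 CPM against 69.4 and 55.0 CPM (log2 fold change 0.83, SE 0.17, adjusted p = 0.00482). *Stat4*, the factor that IL-12 activates, was at 123.2 and 107 CPM against 63.0 and 81.1 CPM (log2 fold change 0.67, SE 0.17, adjusted p = 0.0414). In each of the 3 the anti-PD1 samples lay above both anti-Lag3 samples, but the calls were near the limit of the design. *Il1r1* lost its call without anti-PD1 2 or anti-Lag3 2 (adjusted p = 0.147 and 0.331). *Jak2* kept its call only without anti-Lag3 1 and had adjusted p = 0.121, 0.0593 and 0.16 without anti-PD1 1, anti-PD1 2 and anti-Lag3 2. *Stat4* kept its call only without anti-Lag3 2 and had adjusted p = 0.538, 0.136 and 0.31 without anti-PD1 1, anti-PD1 2 and anti-Lag3 1. Reads of *Stat4* cannot be told from those of *Gm28177*, which overlaps it. Members that were not called stood on either side, such as *Il18r1* (log2 fold change 0.79), *Il27ra* (-0.62) and *Il1rl2* (-0.62), and *Il18r1* was at or below 4.53 CPM in all 4 samples.

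**Figure D3:**
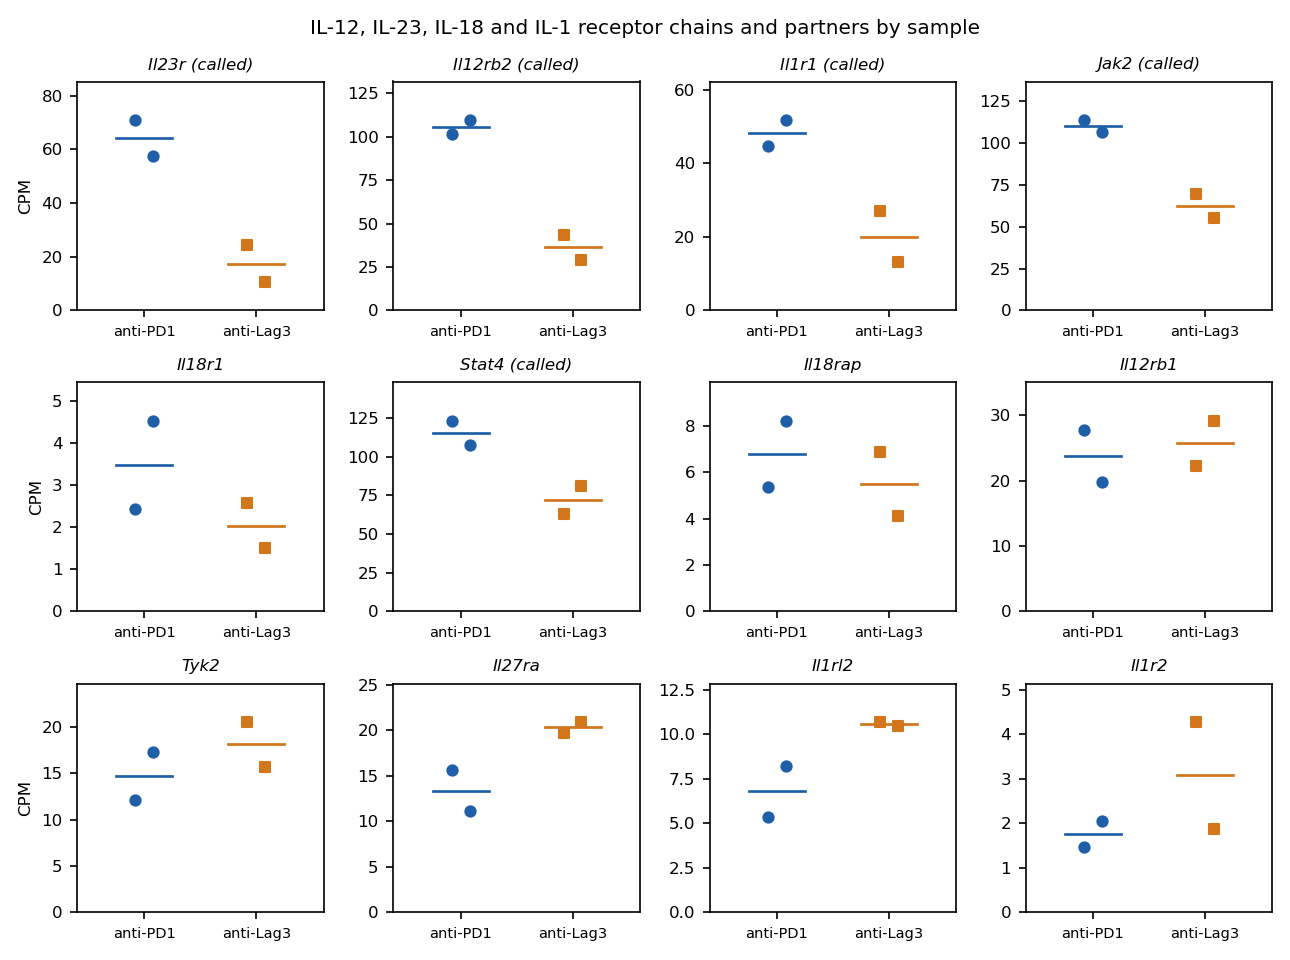
CPM by sample of the 12 tested members of the IL-12, IL-23, IL-18 and IL-1 receptor list, with blue circles for anti-PD1, orange squares for anti-Lag3 and a line at each mean (n = 2), each panel on its own axis from 0. In the 5 panels marked as called the anti-PD1 samples lie above both anti-Lag3 samples, and in the other 7 the difference did not pass the test.

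*Stat3*, which the IL-23 and IL-6 receptors activate, was also higher with anti-PD1, at 481 and 441 CPM against 301 and 355 CPM (log2 fold change 0.49, SE 0.11, adjusted p = 0.0132). It overlaps *Stat5a* on the other strand, and *Stat5a* itself had a log2 fold change of 0.61 that missed the threshold (adjusted p = 0.0648). In the list of SOCS, STAT and PIM genes, 2 of 20 were higher (*Stat3* and *Stat4*) and 1 lower, together 15% against 0.429% of all tested genes. The lower gene was *Pim2*, a survival kinase induced by cytokines, at 41.9 and 38.3 CPM with anti-PD1 and at 63.9 and 78.5 CPM with anti-Lag3 (log2 fold change -0.83, SE 0.20, adjusted p = 0.033). Its relative *Pim1* had a log2 fold change of 0.37 (adjusted p = 0.28) and did not pass. *Stat3* lost its call without anti-PD1 1, anti-PD1 2 or anti-Lag3 1 (adjusted p = 0.421, 0.123 and 0.132), and *Pim2* without anti-PD1 1, anti-PD1 2 or anti-Lag3 2 (0.157, 0.442 and 0.413). Receptors of the common gamma chain, IL-6, IL-10, interferon and TGF-beta families had no call among 18 tested genes by edgeR, limma-voom or DESeq2, with 3 at an unadjusted p under 0.05 and a median log2 fold change of -0.07, or 0.00 without anti-PD1 1. The difference between these receptor lists was not tested.

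*Rora*, *Il17f* and *Ccr6*, each the single call of a different list (lineage factors, effector cytokines, chemokines and their receptors), were higher with anti-PD1, and all are known from IL-17-producing (Th17) cells, for which no list was tested. The single calls were 3.85%, 9.09% and 7.14% of the tested members, against 0.37% of all tested genes. In lists this short 1 call makes a large share. *Rora*, a nuclear receptor that promotes that lineage (ENSMUSG00000032238, chr9:68653786-69388246, plus strand), was at 306 and 269 CPM with anti-PD1 and at 144 and 124 CPM with anti-Lag3. It was 2.14 times higher (log2 fold change 1.10, SE 0.13, adjusted p = 4.78e-08) and kept its call without any of the 4 libraries. *Il17f*, a cytokine of Th17 cells, was nearly absent with anti-Lag3, at 3.00 and 0.748 CPM, and reached 20.5 and 10.7 CPM with anti-PD1. Its log2 fold change of 3.05 (SE 0.57, adjusted p = 0.00104) was the largest of all called genes and rests on few reads. It lost the call without anti-PD1 1 (adjusted p = 0.235) or anti-Lag3 2 (adjusted p = 0.0558), and DESeq2 gave it no adjusted p. *Ccr6*, a chemokine receptor of Th17 cells, was at 53.1 and 54.7 CPM against 30.9 and 18.7 CPM (log2 fold change 1.13, SE 0.24, adjusted p = 0.00759). It was no longer called without anti-PD1 2 (adjusted p = 0.123) or anti-Lag3 2 (adjusted p = 0.318).

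Beyond *Rora*, none of the 26 tested lineage factors was called, although 42.3% of that list had both anti-PD1 samples above both anti-Lag3 samples, against 18.2% of all genes. Its uncalled members of smallest p were *Hif1a* (584 and 575 CPM against 428 and 467 CPM, log2 fold change 0.37, adjusted p = 0.0898), *Nfil3* (1.10, adjusted p = 0.165) and the aryl hydrocarbon receptor *Ahr* (0.84, adjusted p = 0.174). Of 11 tested effector cytokines only *Il17f* was called, and the list's median log2 fold change was 0.52, or 0.23 without anti-Lag3 1. *Il21*, a helper cytokine that supports B cells, was at 61.4 and 42.0 CPM with anti-PD1 and at 30.9 and 26.9 CPM with anti-Lag3. The groups did not overlap, and the log2 fold change of 0.83 (SE 0.24) did not pass the test (adjusted p = 0.124). *Gm12534*, a non-coding gene that overlaps *Il21* on the other strand, did pass at 60.4 and 44.0 CPM against 19.3 and 5.23 CPM (log2 fold change 2.12, SE 0.31, adjusted p = 1.17e-05). The strand setting of the read counting is not given in the sources used here, so reads of these overlapping genes cannot be told apart, and DESeq2 gave *Gm12534* an adjusted p of 1. The chemokine and chemokine receptor list had 14 tested members, of which *Ccr6* was called and 7 had non-overlapping samples on the high side (50% against 18.2% of all genes). That list's median of 0.53 ran from 0.17 without anti-PD1 2 to 1.38 without anti-Lag3 2. Its uncalled members included *Cxcr5*, the follicular homing receptor, at 26.3 and 24.3 CPM against 9.002 and 14.96 CPM (log2 fold change 1.06, adjusted p = 0.246).

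Other transcription factors with known roles in activated T cells were higher with anti-PD1 by smaller amounts. *Irf8* was at 418 and 386 CPM against 275 and 273 CPM, 1.47 times higher (log2 fold change 0.55, SE 0.11, adjusted p = 0.00329), and it overlaps *Gm20388* on the same strand. *Irf4*, its relative, had a log2 fold change of 0.33 (SE 0.11, adjusted p = 0.324) at 390 and 356 CPM against 315 and 278 CPM. *Irf8* was the single call among 10 interferon regulatory factors (10% against 0.37% of all tested genes). *Satb1*, a chromatin organiser of T cells, had the smallest called difference at 1512 and 1527 CPM against 1196 and 1198 CPM (log2 fold change 0.34, SE 0.08, adjusted p = 0.0274). *C230085N15Rik*, which lies within *Satb1* on the same strand, was called beside it (0.55, adjusted p = 0.0433). *Klf6*, a zinc finger factor, was at 112 and 137 CPM against 47.2 and 77.8 CPM (log2 fold change 0.99, SE 0.18, adjusted p = 0.000631). *Crem*, a regulator that responds to cyclic AMP, *Rbpj*, the DNA-binding partner of Notch, and *Zeb1*, a repressor of *Il2*, were higher by 0.91, 0.85 and 0.83 on the log2 scale (adjusted p = 0.0274, 0.0177 and 0.0464). *Irf8* and *Satb1* lost the call without anti-PD1 1 or anti-PD1 2, while their log2 fold changes stayed between 0.50 and 0.60 and between 0.32 and 0.35. With the replicate number as a block, *Satb1* and *C230085N15Rik* had adjusted p = 0.0582 and 0.0559. *Klf6* lost it without anti-PD1 2 (adjusted p = 0.0929), and *Rbpj* without anti-PD1 2 or anti-Lag3 2 (0.613 and 0.194). *Zeb1* kept it only without anti-Lag3 1, and *Crem* and *C230085N15Rik* only without anti-Lag3 2.

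In the TNF receptor and ligand families, 2 receptors were higher and 1 ligand was lower with anti-PD1. *Tnfrsf9*, which encodes the costimulatory receptor 4-1BB, was at 119 and 141 CPM with anti-PD1 and at 90.0 and 52.0 CPM with anti-Lag3 (log2 fold change 0.89, SE 0.18, adjusted p = 0.00264). It was also the only call among the regulatory T cell markers, of which *Foxp3* had -0.86 (adjusted p = 0.82) and did not pass. *Tnfrsf4*, which encodes OX40, was at 415 and 414 CPM against 333 and 276 CPM (log2 fold change 0.44, SE 0.11, adjusted p = 0.0459). They were the 2 called members of 10 tested costimulatory receptors (20% against 0.37% of all tested genes), whose median log2 fold change was 0.24. DESeq2 called none of the 10 (*Tnfrsf9* adjusted p = 0.16, *Tnfrsf4* 0.182), and the median was 0.06 without anti-PD1 2. *Icos* (0.23, SE 0.09, adjusted p = 0.517) and *Tnfrsf18*, which encodes GITR (0.26, SE 0.13, adjusted p = 0.733), did not pass, and the *Tnfrsf18* samples overlapped. Without anti-PD1 2 or anti-Lag3 2 no costimulatory receptor was called, and *Tnfrsf9* then had adjusted p = 0.173 and 0.324. *Tnfrsf4* also lost its call without anti-PD1 1 (adjusted p = 0.394) and with the replicate number as a block (adjusted p = 0.0605).

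Among 9 tested TNF superfamily ligands the median log2 fold change was -0.62, with 5 members non-overlapping on the low side (55.6% against 17.7% of all genes). *Lta*, which encodes lymphotoxin alpha (ENSMUSG00000024402, chr17:35203165-35205351, minus strand), was the member that passed the test (11.1% of the 9 against 0.0589% of all tested genes). It was at 8.28 and 18.5 CPM with anti-PD1 and at 37.3 and 35.1 CPM with anti-Lag3, 2.65 times as high with anti-Lag3 (log2 fold change -1.40, SE 0.31, adjusted p = 0.0102). *Tnf* (7.79 and 6.17 CPM against 20.1 and 10.8 CPM, log2 fold change -1.14, adjusted p = 0.443) and *Tnfsf10*, which encodes TRAIL (-1.12, adjusted p = 0.807), did not pass. *Tnfsf8*, which encodes CD30 ligand, had a value on the other side (0.65, adjusted p = 0.289). *Lta* lost its call without anti-PD1 1 (adjusted p = 0.451) and in DESeq2 (0.329), and the list's median was then -0.41 and -0.69.

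Downstream of these receptors, 2 of 28 NF-kB pathway genes were higher (7.14% against 0.37% of all tested genes) and none lower. The list median was 0.09. *Traf1*, an adaptor of TNF receptors, was at 67.2 and 76.6 CPM against 36.0 and 37.0 CPM (log2 fold change 0.98, SE 0.20, adjusted p = 0.00523). *Tnip3*, an inhibitor of NF-kB signaling, was at 118 and 110 CPM against 77.2 and 46.4 CPM (log2 fold change 0.89, SE 0.18, adjusted p = 0.00329). Samples were non-overlapping on the high side in 11 of the 28 (39.3% against 18.2% of all genes) and on the low side in 1 (3.57% against 17.7%). DESeq2 called none of the 28 (*Traf1* adjusted p = 0.153, *Tnip3* 0.159), and the median ran from 0.02 without anti-PD1 2 to 0.23 without anti-PD1 1. The members nearest to the threshold were *Nfkbia* (0.39, adjusted p = 0.106), *Bcl3* (0.73, adjusted p = 0.155) and *Nfkbib* (0.54, adjusted p = 0.163), and *Malt1*, a protease of the pathway, had 0.43 (adjusted p = 0.28). *Traf1* lost its call without anti-PD1 2 (adjusted p = 0.28) and *Tnip3* without anti-Lag3 2 (adjusted p = 0.33).

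A pair of serpins, inhibitors of granzymes and related proteases, was higher with anti-PD1. *Serpinb9*, an inhibitor of granzyme B (ENSMUSG00000045827, chromosome 13), was at 94.0 and 129 CPM with anti-PD1 and at 37.3 and 55.0 CPM with anti-Lag3, 2.41 times higher (log2 fold change 1.27, SE 0.19, adjusted p = 1.39e-05). *Serpinb6b*, from the same cluster on chromosome 13, was at 178 and 179 CPM against 88.3 and 112 CPM (log2 fold change 0.83, SE 0.15, adjusted p = 0.000448). Genes of this cluster are close relatives, and reads from near-identical stretches could be split between them. Both calls held without any of the 4 libraries. The list of granzymes, perforin and serpins had 11 tested members, 2 higher (18.2% against 0.37% of all tested genes) and none lower. It had 10 of 11 log2 fold changes above 0 and a median of 0.50. The granzymes did not pass, with *Gzmb* at 25.8 and 44.0 CPM against 22.7 and 22.8 CPM (0.63, adjusted p = 0.62) and *Gzma* at or under 7.82 CPM in all samples (1.92, adjusted p = 0.563).

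The smallest adjusted p of all belonged to *Arap2*, a GTPase-activating protein for ARF proteins (ENSMUSG00000037999, chr5:62602445-62766159, minus strand). It was at 495 and 506 CPM with anti-PD1 and at 270 and 213 CPM with anti-Lag3, 2.07 times higher (log2 fold change 1.05, SE 0.11, adjusted p = 5.31e-09), and at 228 and 158 CPM with isotype. *Dock10* was at 317 and 326 CPM against 206 in both anti-Lag3 samples (log2 fold change 0.64, SE 0.12, adjusted p = 0.00096). *Gpr65*, a receptor that senses protons, was at 161 and 134 CPM against 87.9 and 80.0 CPM (0.81, SE 0.15, adjusted p = 0.00121). It was the single call among 20 metabolite-sensing receptors (5% against 0.37% of all tested genes). *Furin*, a protease that matures TGF-beta and other precursors, was at 130 and 140 CPM against 83.2 and 66.5 CPM (0.86, SE 0.16, adjusted p = 0.000989). *Dock10* and *Furin* lost the call without anti-PD1 2 (adjusted p = 0.0973 and 0.0868) and *Gpr65* without anti-PD1 1 (0.184), while *Arap2* kept it without any of the libraries.

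Of 28 tested negative regulators of TCR signaling, 2 were higher with anti-PD1 and 1 lower, together 10.7% against 0.429% of all tested genes. The list median of 0.07 became -0.02 without anti-PD1 1. *Ptpn4*, a tyrosine phosphatase, was at 104 and 109 CPM against 61.3 and 48.2 CPM (log2 fold change 0.97, SE 0.18, adjusted p = 0.000769) and kept its call in every alternative fit. *Cblb*, a ubiquitin ligase that restrains T cells lacking costimulation, was at 218 and 247 CPM against 165 and 141 CPM (0.61, SE 0.13, adjusted p = 0.00911). *Ptpn6*, which encodes SHP-1, lay on the other side at 125 and 107 CPM with anti-PD1 and 162 and 193 CPM with anti-Lag3 (-0.62, SE 0.14, adjusted p = 0.0209). The calls of *Cblb* and *Ptpn6* were lost without anti-PD1 2 (adjusted p = 0.537 and 0.611) or anti-Lag3 2 (0.16 and 0.331), and that of *Ptpn6* also without anti-PD1 1 (adjusted p = 0.0512).

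Of 44 tested ATF4 stress and amino acid supply genes, 3 were higher with anti-PD1 (6.82% against 0.37% of all tested genes). *Chac1*, an enzyme that degrades glutathione and a target of the stress factor ATF4, was at 24.4 and 42.0 CPM with anti-PD1 and at 9.86 and 2.24 CPM with anti-Lag3 (log2 fold change 2.497, SE 0.39, adjusted p = 5.49e-05). *Atf4* itself was at 604 and 852 CPM against 496 and 416 CPM (0.68, SE 0.11, adjusted p = 0.000116), and *Ddit3*, which encodes the stress factor CHOP, at 20.9 and 51.0 CPM against 13.7 and 15.3 CPM (1.32, SE 0.31, adjusted p = 0.0261). The anti-PD1 2 sample was the highest of the 4 for all 3 genes. Isotype samples were not uniformly low here, with *Chac1* at 6.71 and 28.0 CPM, *Atf4* at 634 and 599 CPM and *Ddit3* at 26.9 and 36.6 CPM. Of the 44 genes, 32 had a log2 fold change above 0, with a median of 0.15 against -0.00269 over all genes. *Chac1* kept its call without any of the 4 libraries, and DESeq2 called it alone in the list. Without anti-PD1 2 the list had 1 call and a median of -0.01, and *Atf4* and *Ddit3* had adjusted p = 0.598 and 0.995. Without anti-Lag3 1 it had 9 calls and a median of 0.38, with *Ddit3* at adjusted p = 0.0505, and without anti-Lag3 2 it had 3 calls and a median of -0.07. *Herpud1*, a gene of the endoplasmic reticulum stress response, was called at 66.2 and 77.0 CPM against 52.3 and 25.0 CPM (0.91, SE 0.22, adjusted p = 0.036) and was lost without anti-Lag3 2 (adjusted p = 0.718) or anti-PD1 2 (adjusted p = 0.495).

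The remaining genes higher with anti-PD1 belong to no group above. At low levels these were *Smim3*, a small membrane protein (19.97 and 24.3 CPM against 5.57 and 2.62 CPM, log2 fold change 2.45, adjusted p = 0.000477), *Ramp3*, a partner of calcitonin-family receptors (12.7 and 19.3 CPM against 3.00 and 1.87 CPM, 2.72, adjusted p = 0.00121), and *Crtam*, an adhesion receptor (16.1 and 4.12 CPM against 1.71 and 0.748 CPM, 2.99, adjusted p = 0.0392). *Smim3* kept its call without any of the libraries, *Ramp3* lost it without anti-PD1 2, and *Crtam* lost it without anti-PD1 1 (adjusted p = 0.95) or anti-Lag3 2 (adjusted p = 0.293). *Cd24a*, a surface glycoprotein, was at 41.9 and 36.6 CPM against 19.7 and 15.7 CPM (1.15, adjusted p = 0.0269). *Crybg1*, *Camsap2*, a protein of microtubule ends, and *Sik3*, a kinase, were higher by 0.95, 0.99 and 0.98 on the log2 scale (adjusted p = 0.000165, 0.0132 and 0.033). *Ifrd1*, *Tent5c*, a poly(A) polymerase, and *Chmp4b*, a membrane-sealing ESCRT protein, were higher by 0.71, 0.77 and 0.43 (adjusted p = 0.0227, 0.0433 and 0.0243). *Crybg1* lost the call without anti-PD1 2, *Camsap2* without anti-PD1 1, and *Ifrd1* without anti-PD1 2 or anti-Lag3 2. *Cd24a*, *Sik3* and *Chmp4b* kept it only without anti-Lag3 1, and *Tent5c* only without anti-Lag3 2. *Rpph1*, the RNA of ribonuclease P, was at 120 and 93.8 CPM against 34.3 and 78.5 CPM (0.90, adjusted p = 0.0138), and its log2 fold change ran from 0.43 without anti-Lag3 1 (adjusted p = 0.482) to 1.63 without anti-Lag3 2. It was also lost without anti-PD1 1 (adjusted p = 0.266), and it overlaps *Ccnb1ip1*.

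Of the 7 genes lower with anti-PD1, *Lta*, *Pim2* and *Ptpn6* are given above. *Slamf6* encodes a receptor of the SLAM family that marks less differentiated T cells (ENSMUSG00000015314, chromosome 1). It was at 88.2 and 65.0 CPM with anti-PD1 and at 127 and 153 CPM with anti-Lag3, 1.84 times as high with anti-Lag3 (log2 fold change -0.88, SE 0.16, adjusted p = 0.00096), and isotype samples were at 146 and 166 CPM. Without anti-PD1 2 its log2 fold change was -0.68 (adjusted p = 0.247). *Ms4a4b*, a membrane protein of T cells, was at 154 and 132 CPM against 228 and 208 CPM (-0.61, SE 0.13, adjusted p = 0.011), and its call was lost without anti-PD1 2 or anti-Lag3 1 (adjusted p = 0.53 and 0.0509). *Tcf7*, a factor of the same less differentiated state, had -0.38 (adjusted p = 0.384) and did not pass. The quiescence and homing list had 24 tested members with *Satb1*, a higher gene, as its only call (4.17% against 0.37% of all tested genes).

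*Ifi213*, an interferon-inducible gene of a family of close paralogs, was at 3.41 and 2.88 CPM with anti-PD1 and at 15.9 and 12.7 CPM with anti-Lag3 (log2 fold change -2.17, SE 0.50, adjusted p = 0.0196). It was the single call among 68 interferon-stimulated genes (1.47% against 0.429% of all tested genes called in either direction). It lost the call without each of the 4 libraries in turn, with log2 fold changes from -2.32 to -2.01. Its neighbours in the list by p were *Ifi209*, a paralog (19.0 and 18.5 CPM against 31.3 and 47.1 CPM, -1.07, adjusted p = 0.0558), and *Cmpk2* (1.46 and 0.412 CPM against 8.14 and 7.48 CPM, -3.04, adjusted p = 0.0779). The list as a whole had a median of -0.07, which ran from -0.27 without anti-PD1 2 to 0.02 without anti-Lag3 1, with 25.0% of members non-overlapping on the low side against 17.7% of all genes and 11.8% on the high side.

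*Ighm*, the immunoglobulin M heavy chain of B cells, was at 54.6 and 43.6 CPM with anti-PD1 and at 71.2 and 108 CPM with anti-Lag3 (log2 fold change -0.88, SE 0.19, adjusted p = 0.0116), and its call was lost without anti-PD1 2 or anti-Lag3 2 (adjusted p = 0.376 and 0.611). B cell markers summed to 77.5 and 69.1 CPM with anti-PD1 and to 91.3 and 136 CPM with anti-Lag3. *Ighm* is one of these markers and made up most of each sum. Of 16 such markers 13 were tested, 6 with a log2 fold change above 0 and 7 below. *Ighm* was the only call, while 0.0589% of all tested genes were called lower. Of the markers, 3 were non-overlapping on the low side and 2 on the high side, against 17.7% and 18.2% of all genes. *Cd79a* and *Blk* were at 0 in all 4 samples. The part of remaining B cells in the *Ighm* result was not tested. Macrophage and monocyte markers summed to 40.9 and 51.9 CPM against 54.4 and 58.7 CPM, with no call among 14 tested.

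**Figure D4:**
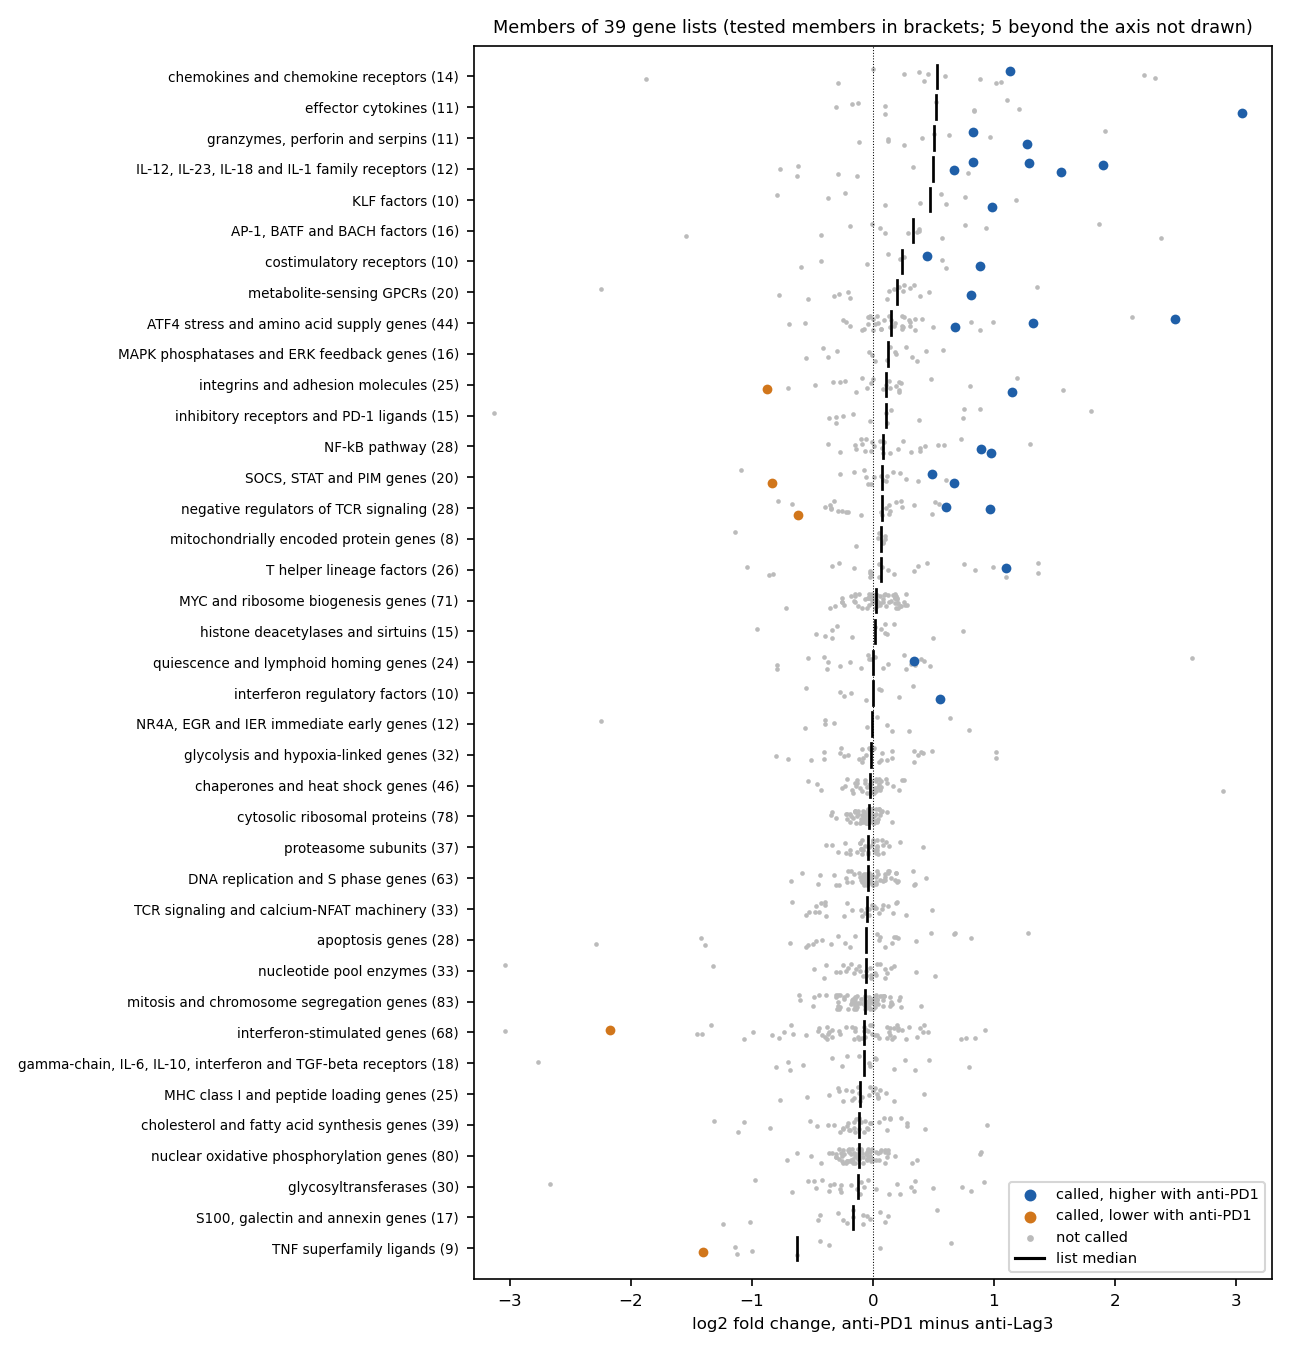
Log2 fold change, anti-PD1 minus anti-Lag3, of the tested members of 39 gene lists, with the number tested in brackets, a black bar at each list's median, and called members in blue (higher) or orange (lower). The receptor list for IL-12, IL-23, IL-18 and IL-1 has 5 blue members, TNF superfamily ligands have the lowest median, and large lists such as ribosomal proteins cluster at 0.

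Some lists of activation genes had no call. No gene was called among 12 immediate early genes of the NR4A, EGR and IER families, 16 AP-1, BATF and BACH factors, 16 MAPK phosphatases and ERK feedback genes, or 28 apoptosis genes, by edgeR, limma-voom or DESeq2. Only 0.429% of all tested genes were called, so lists of this size can have no call without differing from the other genes. At an unadjusted p under 0.05 these lists had 1, 4, 2 and 5 genes, against 822 of all 11877. The AP-1, BATF and BACH list had a median log2 fold change of 0.33, or 0.12 without anti-Lag3 1. Both anti-PD1 samples lay above both anti-Lag3 samples in 37.5% of its members against 18.2% of all genes, and below in 6.25% against 17.7%. Of all 39 lists, 22 had no call in the edgeR fit. *Egr1* was at 41.4 and 25.5 CPM with anti-PD1 and at 39.0 and 48.2 CPM with anti-Lag3 (log2 fold change -0.40, adjusted p = 0.807). *Dusp5*, an ERK phosphatase, had 0.58 (adjusted p = 0.104) and *Bcl2l1*, which encodes BCL-XL, had 0.68 (adjusted p = 0.171). TCR signaling genes had 33 tested members, none called, 9 at an unadjusted p under 0.05 and a median of -0.05, with 11 non-overlapping on the low side (33.3% against 17.7% of all genes), among them the adaptor *Lcp2* at 124 and 106 CPM against 163 and 157 CPM (-0.47, adjusted p = 0.19) and *Nfatc1* (-0.44, adjusted p = 0.192).

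Several housekeeping programs had no call in any of these tools but leaned to the low side in counts of non-overlapping genes, while others leaned to the high side. Nuclear genes of oxidative phosphorylation had 34 of 80 members (42.5%) with both anti-PD1 samples below both anti-Lag3 samples, against 17.7% of all genes, and a median log2 fold change of -0.12. Leaving out any of the libraries kept that median between -0.14 and -0.08. Cytosolic ribosomal proteins had 24 of 78 (30.8%) and a median of -0.03, and mitosis genes 22 of 83 (26.5%) and a median of -0.07. At an unadjusted p under 0.05 the 3 lists had 9, 3 and 4 genes. Genes of a list share libraries and scaling, so the members are not independent. The sizes were small, as in *Ndufb5*, a subunit of complex I, at 102 and 94.3 CPM against 138 and 125 CPM (-0.42, adjusted p = 0.39), and *Ccna2*, which encodes cyclin A2, at 111 and 108 CPM against 122.6 and 163 CPM (-0.39, adjusted p = 0.502).

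The study also provides lists of genes that were higher or lower 4, 12 and 24 h after a high than after a low dose of the same peptide, measured in other samples. Those cells had a first dose only, and at 4 h they were sorted as positive for the blue and negative for the red Timer form. The study made these lists with DESeq2 and a fold change cut, whereas the calls here had no such cut. Of the 336 genes higher at 4 h, 332 were tested here, and 24 were called higher with anti-PD1 (7.23% against 0.37% of all genes) and none lower. Among these 24 of the 44 higher genes were *Arap2*, *Rora*, *Il12rb2*, *Serpinb9*, *Irf8* and *Tnfrsf4*. The list's median log2 fold change was 0.24, and 36.4% of its members were non-overlapping on the high side against 18.2% of all genes, and 10.8% on the low side against 17.7%. *Il23r*, *Il17f*, *Ccr6*, *Il1r1*, *Chac1* and *Atf4* are not on it. Of the 297 genes lower at 4 h with the high dose, 287 were tested, with a median of -0.24 and 35.5% non-overlapping on the low side against 17.7% of all genes. Of these, 2 were called lower with anti-PD1 (*Ms4a4b* and *Ptpn6*) and 2 higher (*Tnfrsf9* and *Crtam*), together 1.39% against 0.429% of all genes. DESeq2 called none of them. For genes higher with the high dose, the lists for later times had medians nearer to 0. At 12 h it was 0.09, with 7 genes called higher and 1 lower of 201 (3.98% against 0.429% of all genes). At 24 h it was 0.05, with 5 higher and none lower of 85 (5.88%), and became -0.07 without anti-PD1 2. For genes lower with the high dose, the median was -0.15 at 12 h and -0.20 at 24 h. At 12 h, 2 of 100 were called higher (*Ramp3* and *Tnfrsf9*) and 1 lower (*Ms4a4b*). At 24 h, 1 of 67 was called higher (*Tnfrsf9*) and 1 lower (*Lta*). Leaving out a library moved the count of higher calls on the 4 h list from 10 (without anti-PD1 2) to 27 (without anti-Lag3 1) and its median from 0.16 to 0.29.

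**Figure D5:**
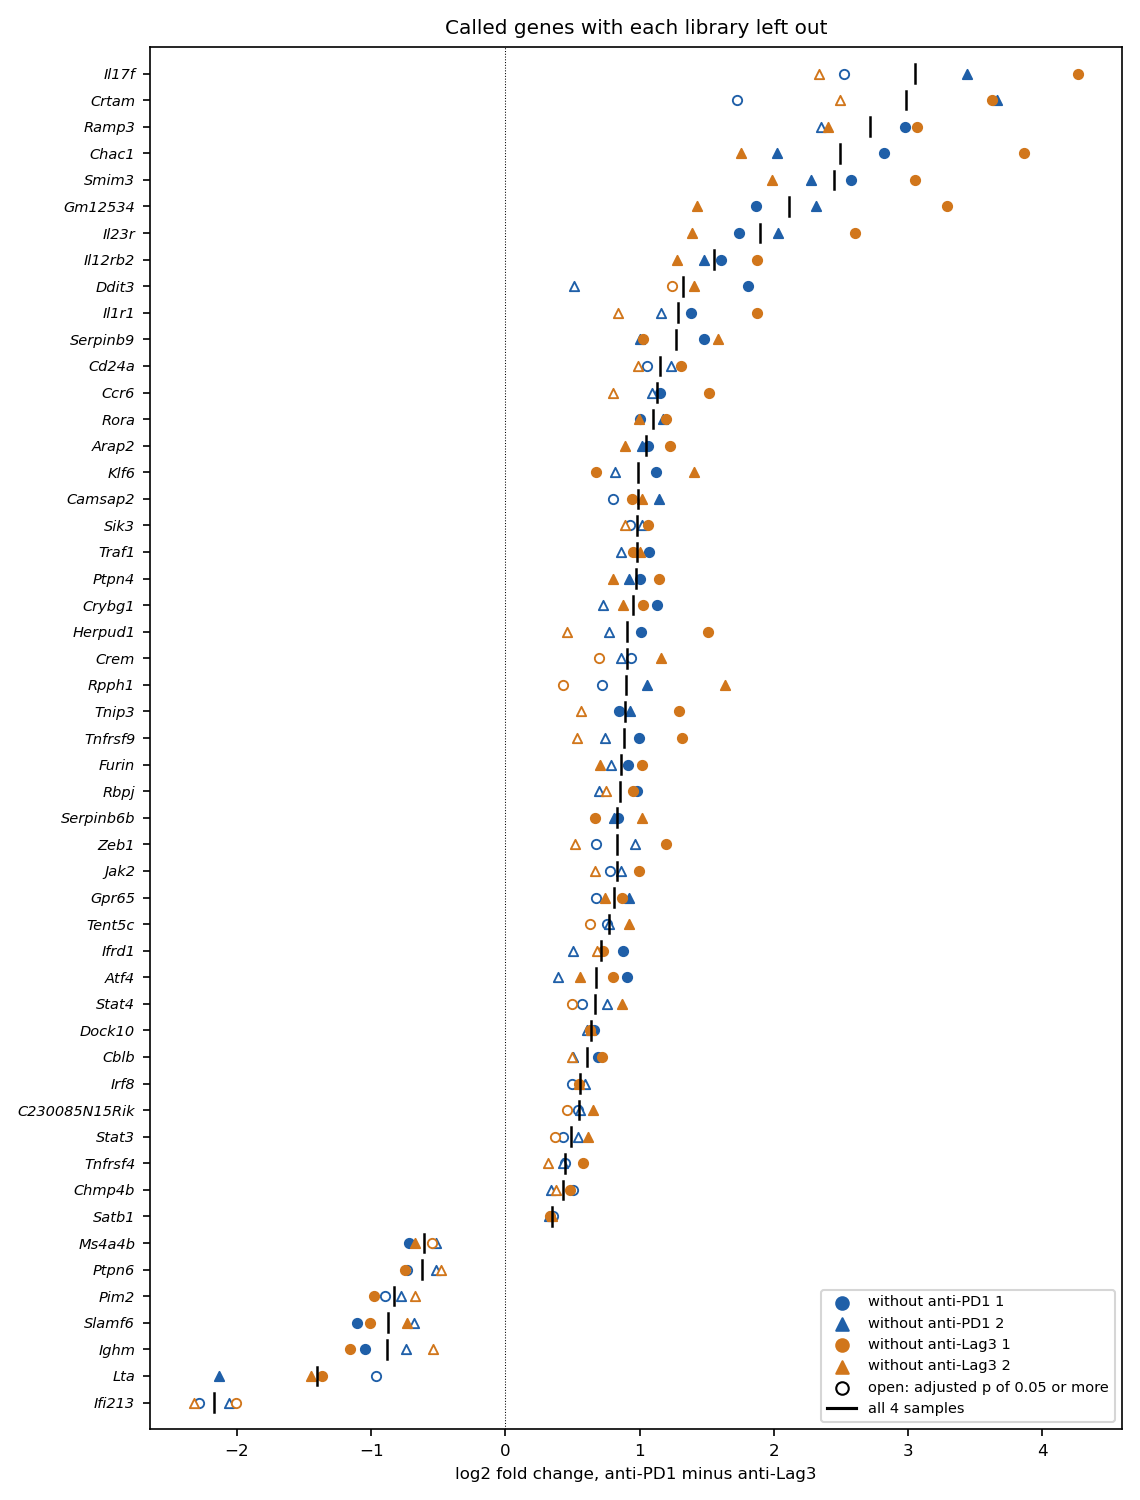
Log2 fold change, anti-PD1 minus anti-Lag3, of the 51 called genes in the fit of all 4 samples (black bars) and with each library left out (blue for an anti-PD1 library, orange for an anti-Lag3 library), with open symbols where the adjusted p was 0.05 or more. All symbols of a gene stay on its side of 0, which follows from samples that do not overlap in these genes.

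The called genes differed in how far they rested on a single library. The samples of the groups did not overlap in any called gene, so leaving out a library could hardly change a direction. None changed. The call held without any of the 4 libraries in 10 genes, namely *Arap2*, *Rora*, *Il12rb2*, *Il23r*, *Gm12534*, *Serpinb9*, *Serpinb6b*, *Chac1*, *Smim3* and *Ptpn4*. In 12 genes it was lost in 1 of the 4 fits, in 15 genes in 2, in 13 genes in 3, and in *Ifi213* in all 4. Leaving out anti-PD1 2 cost the most calls, 34 of 51, and leaving out anti-Lag3 1 the fewest, 9. A fit without a library has a lone sample in a group, which is assumed to vary as the other group does.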

How the data were processed

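Read counts per gene were made and deposited by the authors for all 6 samples. Per the study's methods, QuantSeq 3′ libraries were trimmed with BBDuk, aligned to GRCm38 with STAR 2.5.2a and counted with HTSeq. The annotation release and strand setting are not given in the sources used here, and the deposited rlog table was not used. Genes with at least 10 reads over 6 samples were tested in the 4 anti-PD1 and anti-Lag3 samples with edgeR 4.0.16 (R 4.3.3, TMM scaling, quasi-likelihood test, Benjamini-Hochberg over 11877 genes, threshold 0.05). SE is the log2 fold change divided by the square root of F. Totals of 2107715 to 2648920 counts set the precision. DESeq2 1.42.0, limma 3.58.1 and other scalings, filters and left-out libraries were alternatives. The test was checked on simulated data, where 48% of 200 genes changed by 1 on the log2 scale among 11867 were recovered. Every simulated gene had the same dispersion of 0.0153, so that share may not hold for real genes of uneven spread. Positions are from GENCODE on GRCm38 and windows from RefSeq. The comparison and gene lists were chosen with earlier results of these data known. All called genes, Pdcd1, Lag3, Nr4a3, genes the study names, marker genes and up to 3 further members per list by smallest p could be named. Figures were drawn with matplotlib 3.10.9.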

Additional observations from a re-analysis of the deposited data

How the results depend on the processing

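All 51 called genes kept their direction in every alternative that tested them. With samples that do not overlap in any of the 51, this could hardly turn out otherwise. Of 797 values, 580 also kept their side of the threshold while 217 lost the call. *Arap2*, *Il12rb2*, *Ptpn4* and *Serpinb6b* were called in all 16. The number of calls depended on the tool. DESeq2 called 19 genes (18 higher, 1 lower) with 4 samples and 16 (13 higher, 3 lower) with all 6, and edgeR's newer quasi-likelihood method called 28 (26 higher, 2 lower). Fitting all 6 samples in edgeR left 29 higher genes. A stricter filter (filterByExpr) left 9118 genes and 30 calls (27 higher, 3 lower). Dropping the filter gave 12 lower genes, and a threshold of 0.1 gave 14. Leaving out each library in turn gave 21 to 76 calls, 18 to 56 higher and 3 to 20 lower, with the fewest without anti-PD1 2 and the most without anti-Lag3 1. A replicate block over the 4 samples gave 51 calls (43 higher, 8 lower), 48 of them shared, without *Satb1*, *C230085N15Rik* and *Tnfrsf4*. Deviations of same-numbered samples had a correlation of -0.036 over 8962 genes. The study describes its excluded samples as a batch sorted together, and whether a number marks such a batch among the samples used is not given in the labels. Of 450 list medians under the alternatives, 64 moved by more than the spread between replicates. At this depth 3 reads were 1.12 to 1.46 CPM, and with 2 samples a group no check for a sample far from the others can be made.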
